A study of Mus musculus with 6 samples.

Results

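The genes described here are those of fluid secretion into kidney cysts: the chloride channels *Cftr*, *Ano1* and *Ano6*, the basolateral cotransporter *Slc12a2*, the anion exchanger *Slc26a6*, the potassium channel *Kcnn4* and the purinergic receptors *P2rx4*, *P2rx7* and *P2ry2*. They were taken by gene symbol from a fixed list of 9 genes, and all 9 were found, in 24 of the 54721 transcript rows of the deposited RNA-Seq table. RNA came from whole kidneys of 6 mice at postnatal day 22. In the 3 *Pkd1* F/RC SKO mice (KspCre with *Pkd1* F/RC), a Cre recombinase driven by the kidney-specific cadherin promoter removes the floxed *Pkd1* allele in tubule cells, and the other allele carries the RC mutation, a hypomorphic change present in all cells. The 3 *Pkd1* F/RC DKO mice carry the same alleles and are also miR17∼92 F/F, with both copies of the miR-17∼92 microRNA cluster floxed. Both groups are thus polycystic models, and cells in which the promoter is silent keep their floxed alleles.

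For each transcript the table gives 1 abundance, the authors' mean log2 CPM (counts scaled to the size of the library) over the 6 libraries. Values of individual kidneys are not listed. No SD can therefore be given, the depth of each library is unknown, and the deletion of the cluster could not be checked. The table also holds the authors' own comparison of DKO with SKO kidneys, which was left unused by choice, so the genotypes are not compared here. All levels below are authors' means over both genotypes together. In whole kidney, few cells of a type with much RNA of a gene and many cells with little of it cannot be told apart.

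Cysts fill because the epithelium that lines them secretes chloride, and sodium and water follow. Chloride enters the cell across its basolateral membrane with sodium and potassium through NKCC1, the product of *Slc12a2*, and leaves on the luminal side through CFTR, which opens when cyclic AMP activates protein kinase A, or through calcium-activated channels such as ANO1. Potassium channels such as KCNN4 let the potassium leave again and keep the voltage that drives chloride out. ATP in the cyst lumen acts on P2X and P2Y receptors and raises calcium in the cell.

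The floxed cluster is what sets the genotypes apart by design, and its sequences are given first because its seeds (bases 2 to 8, in capitals) were searched for in the 3′-UTRs of the genes. The mature miRNAs lie on the forward strand of mouse chromosome 14 between 115043684 and 115044496 (GRCm38, RefSeq), and the 6 guide strands form 4 seed groups. The first pair has the miR-17 seed, the next has the miR-18 seed, the following pair has the miR-19 seed and the last has the miR-92 seed.

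mmu-miR-17-5p: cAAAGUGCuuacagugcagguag

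mmu-miR-20a-5p: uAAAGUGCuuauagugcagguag

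mmu-miR-18a-5p: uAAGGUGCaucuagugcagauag

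mmu-miR-19a-3p: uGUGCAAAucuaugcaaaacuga

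mmu-miR-19b-3p: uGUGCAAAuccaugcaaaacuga

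mmu-miR-92a-3p: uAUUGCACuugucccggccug

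The tissue carried the markers of kidney. The proximal tubule genes *Slc34a1*, *Lrp2*, *Cubn* and *Slc5a2* lay between 108.3 and 1030 CPM, and the thick ascending limb genes *Umod*, *Slc12a1* and *Cldn16* between 7.98 and 1022 CPM. *Slc12a3*, *Trpm6* and *Pvalb* of the distal convoluted tubule ranged from 3.14 to 169.4 CPM. Markers of principal cells (4 genes, 14.1 to 77.7 CPM), intercalated cells (4 genes, 17.8 to 41.0 CPM), podocytes (3 genes, 12.97 to 130.6 CPM), endothelium (3 genes, 27.0 to 52.7 CPM) and macrophages (3 genes, 4.49 to 25.3 CPM) were also present. Of tissues next to the kidney, adrenal cortex gave at most 0.892 CPM (*Star*) and skeletal muscle at most 0.0890 CPM (*Acta1*). The fat gene *Adipoq* had 5.82 CPM, the hepatocyte genes *Alb* and *Apoa2* 13.4 and 1.34 CPM, and the haemoglobin genes *Hba-a1* and *Hbb-b1* 72.9 and 52.6 CPM. The part of fat, liver and blood RNA in the levels of the 9 genes was not tested.

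*Cftr*, the chloride channel opened by cyclic AMP, had a low level. Its RefSeq transcript NM_021050, which spans 27 exons on the forward strand of chromosome 6 (18170687 to 18322768, mm10), had 3.88 CPM. A second row under its name, assembled from the reads, had 1.10 CPM, which is 28.4% of the first. The lowest value anywhere in the table was 0.0263 CPM, carried by 4617 rows, and *Cftr* stood 147.2 times above it. Of its exon bases, 129 (2.0%) are shared with *Gm15592* on the opposite strand.

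The anoctamins are a family of membrane proteins that includes calcium-activated chloride channels and lipid scramblases. *Ano1*, the calcium-activated chloride channel proper, lies on the reverse strand of chromosome 7 (144588549 to 144738566, mm10). Its 5 rows, 2 from RefSeq and 3 assembled, were nearly equal, from 10.40 to 10.45 CPM. *Ano6*, which moves phospholipids between membrane leaflets and also conducts ions, was the most abundant of the 9 genes. Its 3 rows lay between 74.4 and 74.7 CPM. It is on the forward strand of chromosome 15 (95790843 to 95974751, mm10). Small parts of its exons are shared with transcripts on the other strand, 214 bases with *A130051J06Rik* and 122 bases with *Gm49172*, or 4.3% and 2.5% of its exon bases.

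*Slc12a2* encodes the basolateral sodium-potassium-chloride cotransporter that loads the cell with chloride. It had a single row, NM_009194, at 35.99 CPM, the second highest CPM of the 9 genes. *Slc26a6*, an apical exchanger of chloride for bicarbonate and oxalate, had 2.14 CPM in its RefSeq row NM_134420 and 2.04 CPM in its assembled row. *Kcnn4*, the calcium-activated potassium channel of intermediate conductance, was close to the lower end of the table. Its rows NM_001163510 and NM_008433 had 0.196 and 0.193 CPM, which is 7.45 and 7.33 times the lowest value. *Kcnn4* was the only one of the 9 genes under 1 CPM in its highest row, and 8 of 9 (88.9%) reached that level, beside 62.4% of the 20167 genes that have a RefSeq mRNA row and a transcript length.

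Among the purinergic receptors, *P2rx4*, a calcium-permeable channel opened by ATP, had 14.35 CPM in its RefSeq row NM_011026 and 14.2 CPM in its assembled row. *P2ry2*, a G protein-coupled receptor for ATP and UTP that releases calcium from stores, had 2 assembled rows at 11.57 and 11.4 CPM and a RefSeq row, NM_008773, at 7.11 CPM, or 61.5% of the highest. The highest assembled row of *P2ry2* was thus 1.63-fold above its RefSeq row. *P2rx7* encodes the ATP-gated channel known for inflammatory signalling, and lies beside *P2rx4* on the forward strand of chromosome 5 (*P2rx7* from 122643911 to 122684289, *P2rx4* from 122707544 to 122729738, mm10). The microRNA gene *Mir8115* shares 119 of the exon bases of *P2rx7* (2.4%) on the same strand.

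*P2rx7* was the gene whose rows differed most, by 7.66-fold from the lowest to the highest. The 4 RefSeq rows held 3.33 CPM (NM_011027), 1.49 CPM (NM_001038839), 1.05 CPM (NM_001038845) and 0.434 CPM (NM_001038887). The transcripts paired with them in the GENCODE annotation are 4936, 2576, 1605 and 712 nt long, in the same order. Divided by these lengths, the 4 rows came to 0.674, 0.580, 0.654 and 0.610 CPM per kilobase, so most of the difference between rows went with their length. The rows share exons: NM_001038839 shares 99.7% of its bases with NM_011027, NM_001038845 88.8% and NM_001038887 60.1%. The RefSeq rows of *Ano1*, which have 99.7% of the shorter one in common, had 10.41 and 10.40 CPM. Rows of a gene are therefore not separate measurements of its isoforms.

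**Figure D1:**
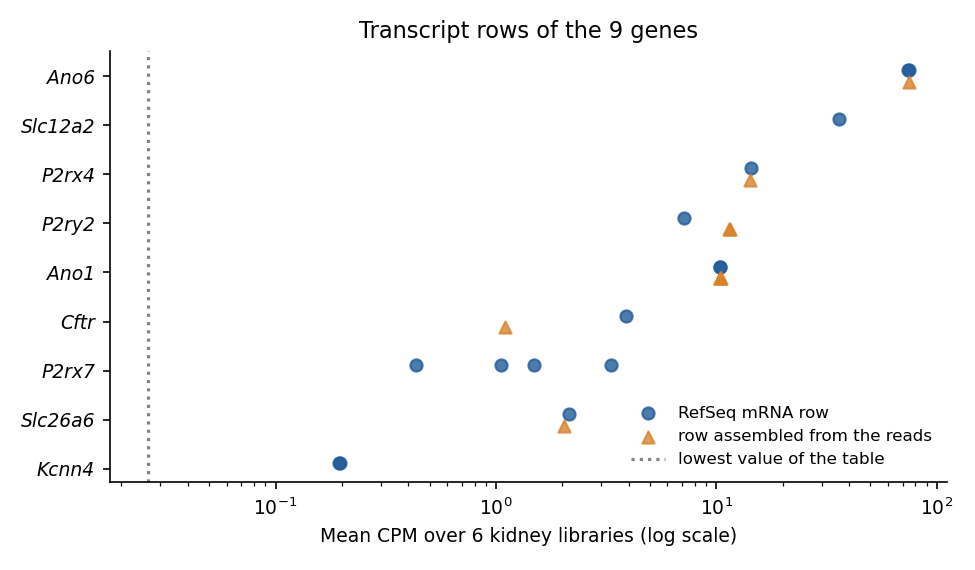
Mean CPM over the 6 kidney libraries (horizontal axis, log scale) of each of the 24 transcript rows of the 9 genes, with circles for RefSeq rows and triangles for rows assembled from the reads. The dotted line marks the lowest value of the table, 0.0263 CPM. The rows of *Ano1* and of *Ano6* lie on top of each other, those of *P2rx7* spread from 0.434 to 3.33 CPM, and *Kcnn4* is nearest to the dotted line.

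Because longer transcripts collect more reads, levels of different genes were compared as CPM of the highest RefSeq row per kilobase of the longest transcript paired with a RefSeq row of the gene. On this scale *Ano6* came first at 15.1 CPM per kilobase, above 91.0% of the 20167 genes. *Slc12a2* (5.52) and *P2rx4* (5.31) followed, above 76.1% and 75.4% of genes. *P2ry2* (2.36) and *Ano1* (2.28) stood near the middle of all genes, above 58.6% and 57.9%. *Slc26a6* (0.784), *P2rx7* (0.674) and *Cftr* (0.615) formed a lower group, above 43.8%, 42.4% and 41.6% of genes. *Kcnn4* was last at 0.0986 CPM per kilobase, above 30.5%. These places depend on the genes compared. Among the 12499 genes of at least 1 CPM in the highest RefSeq row, *Ano6* lay above 85.5%, *Slc12a2* above 61.5% and *P2rx4* above 60.4%. In that set *P2ry2* and *Ano1* lay above 33.1% and 32.1%. *Slc26a6*, *P2rx7* and *Cftr* lay above only 9.7%, 7.7% and 6.5% of it. The median of the 9 genes was 2.28 CPM per kilobase, beside 1.39 over all genes.

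The steps in this order were uneven. *Ano6* was 2.74-fold above *Slc12a2*, *P2rx4* 2.25-fold above *P2ry2*, *Ano1* 2.91-fold above *Slc26a6* and *Cftr* 6.24-fold above *Kcnn4*. *Slc12a2* and *P2rx4* differed by 1.04-fold, as did *P2ry2* and *Ano1*, and *Slc26a6*, *P2rx7* and *Cftr* by 1.16-fold and 1.10-fold at each step. How close these sets lie depends on the use of the full transcript length. For *P2ry2* it also depends on the RefSeq row, which had 61.5% of the CPM of its highest row. Per kilobase of coding length, *P2ry2* was 1.86-fold above *Ano1*, *P2rx7* was 1.65-fold above *Slc26a6* and 2.13-fold above *Cftr*, and *P2rx4* was 1.24-fold above *Slc12a2*, so that the order of *P2rx4* and *Slc12a2* and that of *P2rx7* and *Slc26a6* turned. *Ano6* stayed first on both scales, and *Cftr* and *Kcnn4* stayed last. With no spread over kidneys, none of these steps has an error, and the order of close neighbours is not resolved. The annotated transcript of *Slc26a6* ends without a stop codon, so its length of 2725 nt is that of a partial model and its level per kilobase is approximate. Its coding length of 1886 nt is partial too, so its ratios to other genes on that scale are also approximate.

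**Figure D2:**
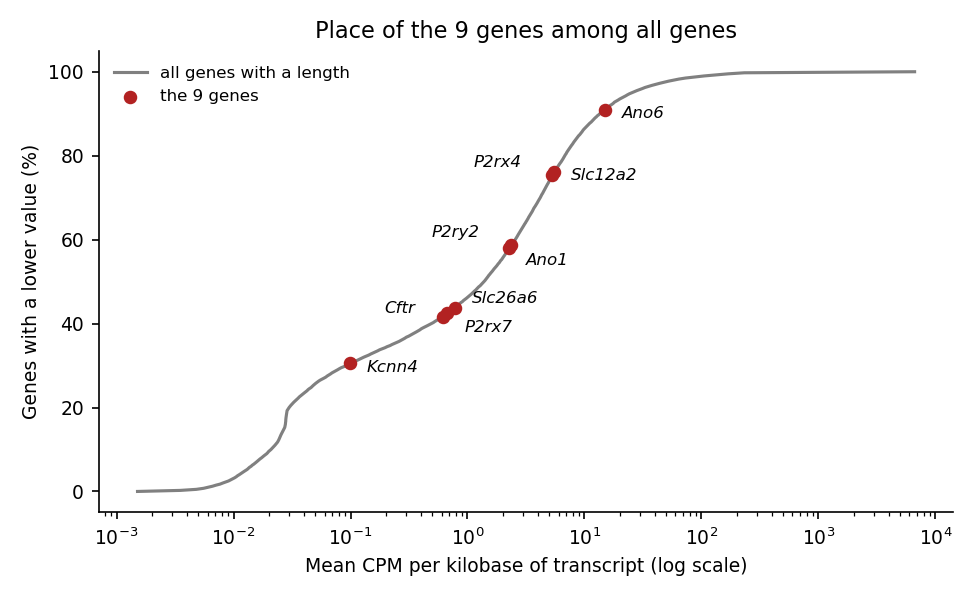
Mean CPM per kilobase of transcript (horizontal axis, log scale) against the share of genes with a lower value (vertical axis, percent), with a grey line for all 20167 genes and red points for the 9 genes. *Ano6* is at the top, above 91.0% of genes, and *Kcnn4* at the bottom, above 30.5%. The others lie in 3 close sets with full transcript length. Coding length parts *P2ry2* from *Ano1*, and *P2rx7* from *Slc26a6* and *Cftr*. It leaves *P2rx4* and *Slc12a2* 1.24-fold and *Slc26a6* and *Cftr* 1.29-fold apart. The coding length of *Slc26a6* is that of a partial model.

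Set against their own families, the 9 genes took different places. *Ano6* was the most abundant of the 9 anoctamins with a transcript length, 3.63-fold above *Ano10* (4.16 CPM per kilobase) and 6.63-fold above *Ano1*, which came after *Ano10*. *Ano8* (1.29), *Ano9* (1.07) and *Ano5* (0.622) were lower. The RefSeq rows of *Ano3*, *Ano2* and *Ano7* had at most 0.372 CPM. *Ano4* had no paired length and had 0.554 CPM.

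Of the chloride cotransporters of the SLC12 family, *Slc12a2* was number 4 of the 8 genes analysed here in order of level. The products of *Slc12a1* and *Slc12a3* reabsorb salt in the thick ascending limb and distal convoluted tubule and are targets of diuretics. These genes stood 24.0-fold and 7.79-fold above *Slc12a2* per kilobase, at 132.4 and 43.0 CPM per kilobase. The potassium-chloride cotransporter gene *Slc12a7* (6.99) was 1.27-fold above *Slc12a2*, and *Slc12a4*, of the same kind, had 3.35 CPM per kilobase. *Slc12a9* (1.33), *Slc12a8* (0.121) and *Slc12a5* (0.119) came last. The level of *Slc12a9* is that of its RefSeq row at 4.435 CPM. Its highest row, without a length, had 16.23 CPM, so its place depends on the row.

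Among the SLC26 anion exchangers, *Slc26a6* was number 5 of the 10 genes measured. The sulfate transporter *Slc26a1* was 10.02-fold higher per kilobase at 7.86 CPM per kilobase, and *Slc26a4*, the pendrin of intercalated cells, 7.36-fold higher at 5.77. *Slc26a11* (1.33) and *Slc26a2* (1.005 CPM per kilobase) were nearest above it, and *Slc26a10* (0.527) and *Slc26a7* (0.335) lay below. The level of *Slc26a2* is that of its RefSeq row at 7.853 CPM, and its highest row, without a length, had 16.05 CPM. *Slc26a3*, *Slc26a5* and *Slc26a9* were near the lowest value of the table, at 0.0411, 0.0277 and 0.0377 CPM.

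*Kcnn4* was the lowest of the 4 KCNN potassium channels. *Kcnn3* was 7.27-fold higher per kilobase, *Kcnn1* 5.27-fold and *Kcnn2* 2.87-fold, all at low levels of 0.717, 0.520 and 0.283 CPM per kilobase.

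*P2rx4* led the 7 P2X receptors, 5.66-fold above *P2rx5* (0.938 CPM per kilobase) and 7.88-fold above *P2rx7*. *P2rx1*, at 0.600 CPM per kilobase, lay close to *P2rx7*, which was number 3 of the 7 with transcript length and number 2 with coding length. *P2rx3* (0.222), *P2rx6* (0.0938) and *P2rx2* (0.0405) were lower. Of the 8 P2Y receptors, *P2ry14*, a receptor for UDP-sugars, was 2.19-fold above *P2ry2*, which came second. The level of *P2ry2* here is that of its RefSeq row at 7.11 CPM, and its highest row, without a length, had 11.57 CPM. *P2ry6* (0.909), *P2ry12* (0.509), *P2ry1* (0.399), *P2ry13* (0.227) and *P2ry10* (0.117 CPM per kilobase) followed. *P2ry4*, the other receptor for UTP, had 0.0613 CPM.

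**Figure D3:**
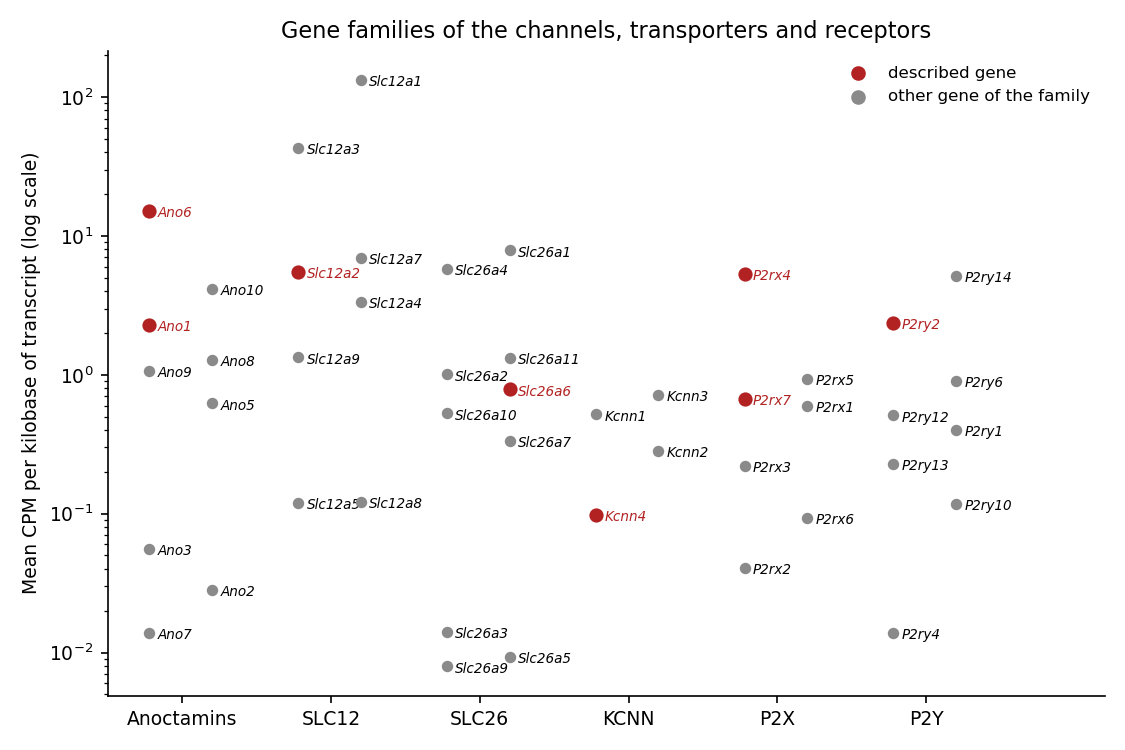
Mean CPM per kilobase of transcript (vertical axis, log scale) for the genes of 6 families, with the genes described here in red and their relatives in grey; points are spread sideways only to keep the names apart. *Ano6* and *P2rx4* head their families, *Slc12a2* lies 24.0-fold below *Slc12a1*, and *Kcnn4* is the lowest KCNN gene.

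Transcripts of most partners and regulators of these channels were at higher levels. The list of 21 genes covers a sodium pump subunit, potassium channels, bicarbonate and anion transporters, a water channel, scaffolds, kinases, and a receptor, a cyclase and a phosphodiesterase of cyclic AMP signalling. Of these genes, 20 had at least 1 CPM, with a median of 12.4 CPM per kilobase, beside 2.28 for the 9 genes and 1.39 for all genes. The sodium pump subunit *Atp1b1* had 497.9 CPM per kilobase, *Pdzk1*, for a scaffold protein, had 142.5, and *Aqp1*, for a water channel, had 126.5. The lowest were the potassium channel subunit *Kcne3* (0.240) and the potassium channel *Kcnma1* (0.150 CPM per kilobase). Many of these genes also serve absorption in normal tubules.

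Genes of ATP release, nucleotide breakdown and adenosine were uneven in level. The list of 16 genes holds genes of ATP release and nucleotide breakdown, with the adenosine deaminase *Ada* (0.982 CPM) and the adenosine receptors *Adora1* (16.97 CPM) and *Adora2b* (1.31 CPM). Of the 16 genes, 10 had at least 1 CPM, and the median was 0.997 CPM per kilobase. Highest in the list were *Alpl* (alkaline phosphatase) at 46.8, *Entpd5* at 36.8 and *Nt5e*, which makes adenosine from AMP, at 4.96 CPM per kilobase. The lowest were *Panx2*, at 0.104 CPM, and *Calhm1*, at 0.0322 CPM, which is close to the lowest value of the table. *Panx1*, a release channel for ATP, fell between these ends at 0.240 CPM per kilobase.

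A 3′-UTR could be taken from the annotation for 8 of the 9 genes, and not for *Slc26a6*. Each was searched for the 7 bases that pair with a seed, which are GCACTTT for miR-17, GCACCTT for miR-18, TTTGCAC for miR-19 and GTGCAAT for miR-92, on the transcribed strand only. A match was found in 4 of the 8 genes, 6 matches in all. Over all 18955 3′-UTRs searched in the same way, 27.1% held a match, but the 3′-UTRs of the 8 genes were long, with a median of 1592 nt beside 834 nt. The share depends on length, and among 3′-UTRs of 0.8 to 1.2 times the length of each of the 8, 15.1% to 58.6% held a match, with a mean of 39.7% over the 8 lengths. The 50.0% of the 8 genes is close to that background, and nothing was read from it.

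The matches are shown with the bases around them and the 7 paired bases in capitals. *P2rx4* had a match of both the miR-17 and the miR-19 group, at 555 to 561 nt and 396 to 402 nt after the stop codon (chr5:122728868-122728874 and chr5:122728709-122728715). *Ano6* had a miR-17 match 24 to 30 nt after the stop codon (chr15:95972725-95972731), and *Ano1* had 2 miR-19 matches at 180 to 186 nt and 1195 to 1201 nt (chr7:144589813-144589819 and chr7:144588798-144588804). *P2rx7* had a miR-18 match at 2002 to 2008 nt (chr5:122683306-122683312). Coordinates are those of mm10, and the *Ano1* matches are on the reverse strand.

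P2rx4 miR-17 match: ctgtccaaGCACTTTataaggaa

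P2rx4 miR-19 match: gggggtcaTTTGCACactacaca

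Ano6 miR-17 match: ctggagaaGCACTTTaaagagaa

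Ano1 first miR-19 match: ttctcattTTTGCACaaggccat

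Ano1 second miR-19 match: ttccaaggTTTGCACtgtttgct

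P2rx7 miR-18 match: gggctgagGCACCTTcatgaagg

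In *P2rx4*, in *Ano6* and at the first *Ano1* position the 7 bases were followed by an A, which makes the longer 8-base form of a match, and at the other 2 positions they were not. *Cftr*, *Slc12a2*, *Kcnn4* and *P2ry2* held no 7-base match in 3′-UTRs of 1735, 2770, 574 and 1407 nt. The miR-92 match was in none of the 8. A match states that the letters are there and not that a miRNA acts on the transcript. Per miRNA group, the shares of all 3′-UTRs with a match were 11.3% for miR-17, 7.6% for miR-18, 10.3% for miR-19 and 6.1% for miR-92.

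**Figure D4:**
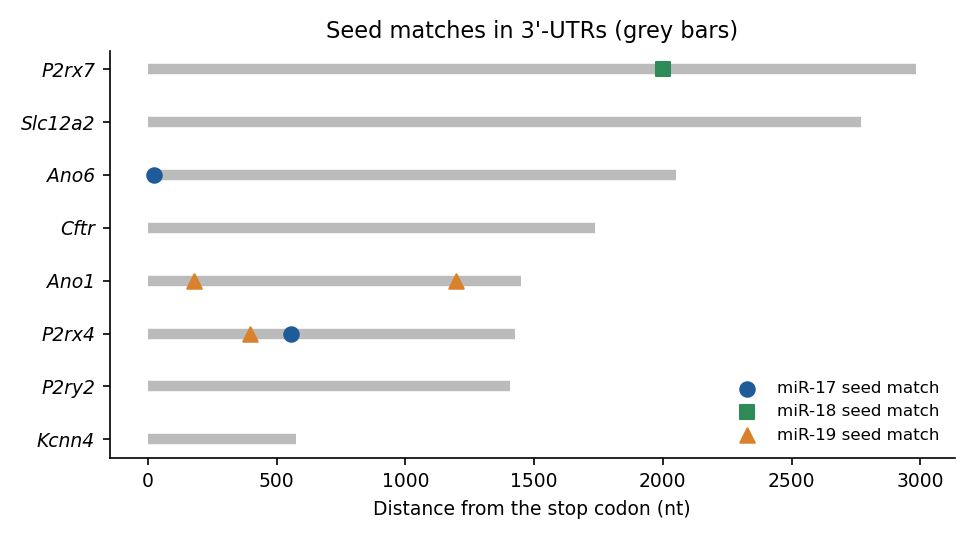
Position of the 6 seed matches in the 3′-UTRs of 8 genes, as distance from the stop codon in nt (horizontal axis), with a grey bar for the length of each 3′-UTR and a symbol for each match by miRNA group. The *Ano6* match starts 24 nt after the stop codon, *P2rx4* carries matches of 2 groups, and the bars of *Cftr*, *Slc12a2*, *P2ry2* and *Kcnn4* are empty.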

How the data were processed

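The authors trimmed 51 bp single-end reads of strand-specific total RNA libraries and mapped them to mm10 with TopHat2 2.0.12 and an iGenomes annotation. They discarded alignments of low mapping quality. The submitters' processing notes also name Cufflinks, featureCounts (Subread 1.4.6) and edgeR 3.2.4. The strand setting of the counting is not given in the sources used here. The deposited log2 values are the authors' mean log2 CPM per transcript over all 6 libraries. The other 4 columns hold the authors' own DKO against SKO comparison (fold change, likelihood ratio, p-value and adjusted p-value) and were not used, so no test was run. The depth per sample is unknown.

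CPM was computed as 2 to the power of the deposited value, with no filter. All levels hold the small amount that edgeR adds to every row, with or without reads, and it weighs most in low ones. RefSeq identifiers were paired with GENCODE M21 transcripts (GRCm38, the assembly of mm10), and 26086 of 27012 RefSeq mRNA rows (96.6%) were given a length. The 3′-UTR searched was that of the longest paired transcript of a gene. The miRNA sequences are from RefSeq (GRCm38.p6), and the other sequences are from GENCODE. The seed search was tested on simulated data. Named genes were all 9 genes with every row, the families of these genes, and the 3 highest and 2 lowest of the other lists. *Panx1*, *Star*, *Acta1* and the other markers were added to show the tissue or the pathway. Some genes of these lists are not reported here. The genes and lists were chosen with earlier results of these data known. Python 3.11.15, pandas 2.3.3, numpy 2.4.6 and matplotlib 3.10.9 were used.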

Additional observations from a re-analysis of the deposited data

How the results depend on the processing

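The median level of the 9 genes was 10.45 CPM in their highest rows, 7.11 CPM in their highest RefSeq rows and 28.6 CPM when all rows of a gene were added, which may count shared reads more than once. With the lowest value of the table subtracted, an alternative chosen after seeing the data, it was 10.4 CPM. Per kilobase the median of 2.28 became 3.41 with coding length and 2.29 when each RefSeq row was divided by its own length. The median place of 57.9% became 58.3% by CPM, and 32.6% among the 12499 genes of at least 1 CPM in the highest RefSeq row (12576 in the highest row of any kind), which leave out *Kcnn4*. Places of single genes moved more by CPM than the median did. The largest rise was that of *Slc12a2*, from 76.1% to 88.4%, and the largest fall that of *P2rx4*, from 75.4% to 72.0%. With its own shorter paired transcript, *Ano6* had 23.6 CPM per kilobase in place of 15.1. The number of genes with a seed match was 4, and 3 with the 8-base match, 5 with the 6-base match and 4 with the longest 3′-UTR. Leaving out replicates, DESeq2 and a count filter were not run, because each needs values of single kidneys. An edgeR test of DKO against SKO kidneys, planned only for counts of single kidneys, was not run for the same reason. No paired analysis was possible because the table holds none.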

Other observations

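Rows of a gene often carried nearly the same value. Of the 8 genes described here with several rows, 5 had all rows within 5% of the highest. *P2rx7*, *P2ry2* and *Cftr* were the exceptions. The 5 include *Kcnn4*, which lay under 1 CPM. Among all 8470 genes with several rows and at least 1 CPM, a limit not set for the 8, the share was 41.0%. A row that was assembled from the reads and named *Ano3* had 6.51 CPM, whereas the RefSeq rows of *Ano3* had at most 0.372 CPM. The position of assembled rows is not given in the table, so which part of the gene it covers was not examined.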
